A study of Mus musculus with 6 samples.

Results

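The spliceosome removes introns from nuclear transcripts, and most of its protein mass is carried by small nuclear ribonucleoproteins, particles built on the U1, U2, U4, U5 and U6 RNAs. U1 marks the 5' splice site, U2 binds the branch point with the help of SF1 and U2AF, and U4/U6 joins U5 in the tri-snRNP before the PRP19-CDC5L proteins help to activate the assembled complex. The Sm proteins form the ring that holds U1, U2, U4 and U5 RNA, and the LSm2 to LSm8 proteins form the ring of U6 RNA. Podocytes are the epithelial cells whose foot processes form the filtration slits of the kidney glomerulus. CD2BP2, the protein targeted in this study, has a GYF domain and is part of U5, and belongs to none of the other particles.

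The transcripts of 50 proteins of these particles were followed, taken from a list of gene names: 7 of the Sm ring, 6 of U1, 11 of U2, 5 that recognise the branch point and 3' splice site, 8 of U4/U6 and the tri-snRNP, 7 of the LSm ring and 6 of the PRP19-CDC5L group. All 50 were found among the 36889 gene identifiers of the deposited tables. They held 850 of the 368092 exonic parts, the pieces left when exons are divided at each annotated boundary, and all 50 passed the filter on low counts. Lsm3 was counted as an aggregate with an overlapping gene.

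Polyadenylated RNA was sequenced in 3 libraries labelled CD2BP2 knockout (KO) and 3 labelled wild type (WT), all on a C57BL/6 background and all with podocytes as the source. The targeted allele carries a loxP site after exon 3 of the 7 exons of Cd2bp2, was made in R1/E embryonic stem cells and was crossed with a FLPO deleter strain. The driver of Cre in podocytes is not given in the sources used here. The treatment text, identical for all 6 libraries, instead describes CD2BP2flox/flox MxCre+ mice and littermate controls aged 6 to 10 weeks, given 300 μg of poly(I:C), from which bone marrow macrophages were grown with M-CSF. Whether each library came from its own animal is not stated in the labels, so p-values here reflect just how far these samples spread, and that spread may be technical.

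Each library held 186022084 to 255554573 counts over all parts. Cd2bp2 itself stood at 61.0, 61.8 and 60.8 CPM (counts scaled to a common library size) in WT1, WT2 and WT3. It stood at 48.4, 47.3 and 51.0 CPM in KO1, KO2 and KO3 (log2 fold change -0.32, SE 0.05, edgeR adjusted p = 0.0297), so its transcript was lower but present. The podocyte marker Nphs1 averaged 2902 ± 121 CPM (SD, n = 3) in WT and 2014 ± 192 CPM (SD, n = 3) in KO, and the macrophage marker Lyz2 42.5 ± 6.34 and 89.5 ± 7.32 CPM. Both are the extremes of their lists. Log2 fold changes ran from -0.53 (Nphs1) to 0.37 (Tcf21) over the podocyte markers, and Tcf21 was higher in each KO library than in each WT library. Over the macrophage and myeloid markers they ran from 0.07 (Cd14) to 1.07 (Lyz2). Of 12 markers each, 1 podocyte marker fell, 4 macrophage and myeloid markers rose, 2 proximal tubule markers rose and 1 distal tubule marker rose. The summed podocyte list was at 24029 to 27139 CPM in WT and 22163 to 24084 in KO, and the macrophage list at 134 to 173 and 245 to 286. The proximal list summed to 563 to 1049 CPM in WT and 907 to 1345 in KO, and the distal list to 184 to 346 and 271 to 1449. For the distal list, which spans the loop of Henle to the collecting duct, the median log2 level relative to WT was 1.12 for KO1, 2.50 for KO2 and 0.19 for KO3. It ranged from -0.38 to 0.19 in WT. In such bulk samples fewer cells of a type and less RNA per cell cannot be told apart.

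Levels of the particle transcripts differed little between KO and WT. Among the 50 genes 2 rose and none fell: Smndc1, which encodes a splicing factor of the U2 step also known as SPF30, rose by 0.40 on the log2 scale, and Lsm4, which encodes a protein of the U6 ring, rose by 0.39. At the same threshold (edgeR's quasi-likelihood test, Benjamini-Hochberg adjusted p under 0.05 over all genes) 3.37% of all 19742 genes tested were called, 1.62% upward and 1.76% downward, against 4% of these 50. limma-voom called the same 2 genes, against 2.49% of all genes, and DESeq2 called 9 of the 50, against 14.0%. At an unadjusted p under 0.05 in edgeR there were 9 of the 50, or 18%, against 22.6% of all genes. The median log2 fold change of the 50 was -0.03, against 0.01 over all genes, and 36 of the 50 lay within 0.1 of 0.

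The KO libraries lay wholly above the WT libraries for 6 genes and wholly below them for 12, and the groups overlapped for the other 32. Over all genes tested 14.1% lay wholly above and 14.8% wholly below, 28.9% together, against 12% and 24% of these 50. The 12 lower genes came from U1 (Luc7l, Luc7l3), U2 (Sf3b1, Sf3b3), U4/U6 (Prpf4, Usp39), the LSm ring (Lsm3, Lsm6, Lsm8) and the PRP19-CDC5L group (Cdc5l, Prpf19, Crnkl1). The 6 higher genes were Snrpe, Puf60, Smndc1, Prpf3, Prpf31 and Lsm4.

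**Figure D1:**
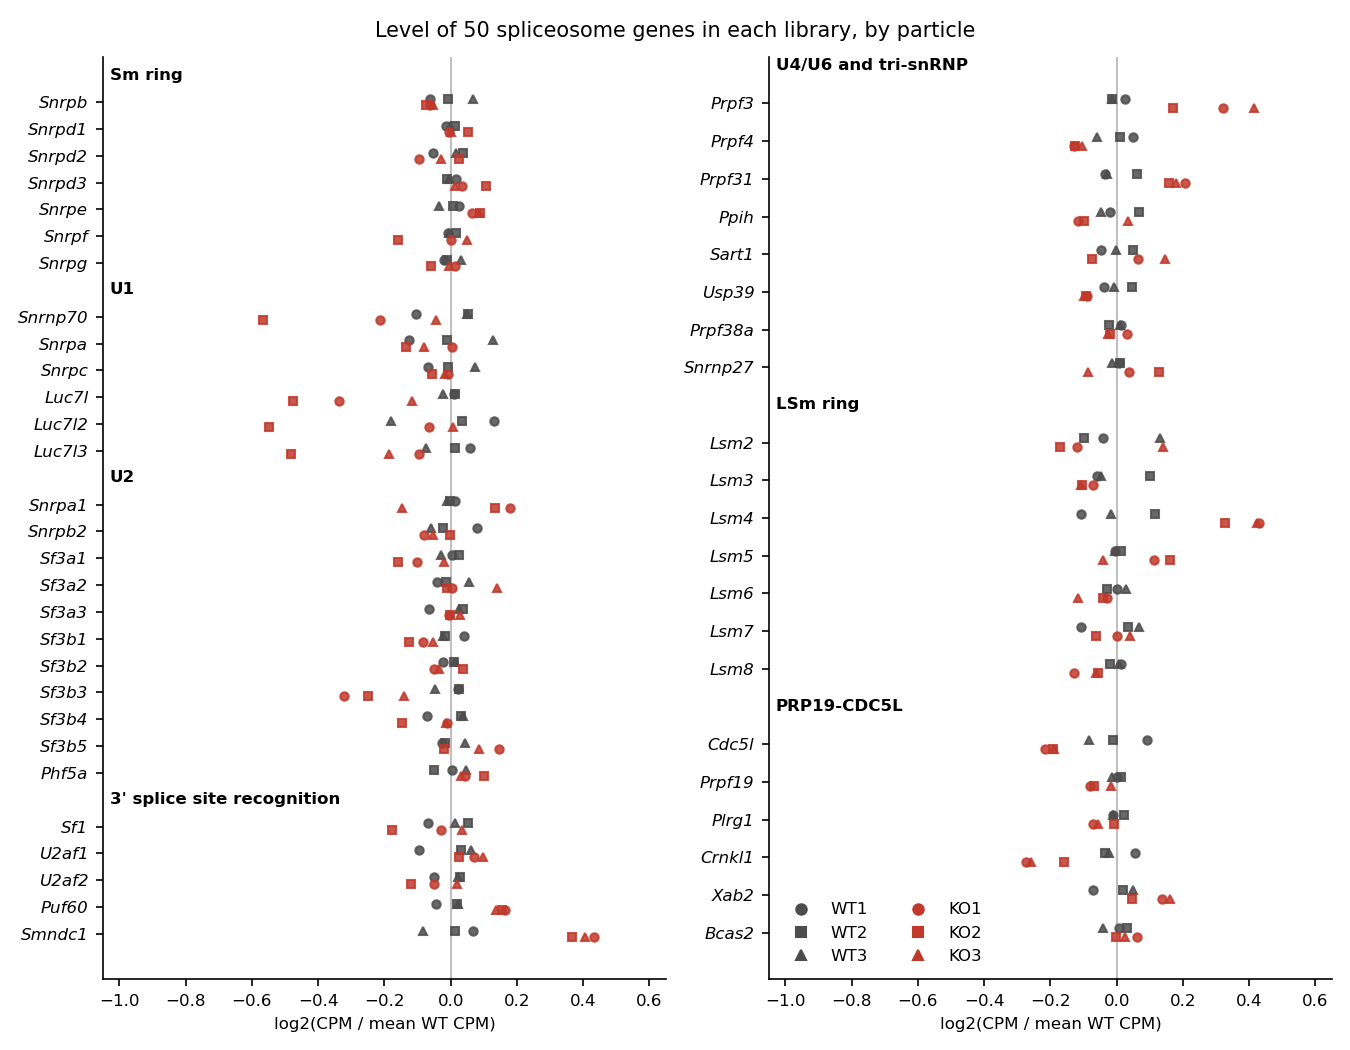
Each point is the level of one gene in one library, as log2 of its CPM over the mean WT CPM, with WT libraries in grey, KO libraries in red and replicates 1, 2 and 3 as circle, square and triangle; genes are grouped by particle. Smndc1, Lsm4 and Prpf3 stand to the right in all 3 KO libraries, and Snrnp70, Luc7l, Luc7l2 and Luc7l3 stand furthest to the left in KO2.

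Transcripts of proteins that sit together in 1 particle were not present at 1 level. Per length, counted over the exonic bases of coding transcripts, the Sm ring genes in WT ranged from 18.5 CPM per kilobase for Snrpf to 128 for Snrpb, a ratio of 6.94 between the lowest and the highest. The LSm ring ranged from 6.12 for Lsm6 to 36.5 for Lsm4, a ratio of 5.95. Without division by length Lsm6 was not the lowest of that ring, at a WT mean of 24.1 CPM against 10.2 for Lsm2. Its part 2, a 3' UTR stretch, spans 1573 of its 4125 exonic bases and held 5.01% of its counts in WT. Ppih, which encodes a cyclophilin of the U4/U6 particle, had the lowest level per length of all 50 at 5.12 ± 0.216 CPM per kilobase, and its neighbour Prpf4 followed at 5.69 ± 0.217 (SD, n = 3 each). Snrnp70, which encodes the RNA-binding 70K protein of U1, stood at 120.0 ± 7.34 CPM per kilobase. Within the LSm ring Lsm3 and Lsm7, at 24.8 ± 1.55 and 24.5 ± 1.57 (SD, n = 3 each), did not differ beyond their spread. Annotated rare exons lengthen some genes and lower this measure, and Sm and LSm genes have near-identical pseudogene copies, so their levels are uncertain where reads could be divided between copies.

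**Figure D2:**
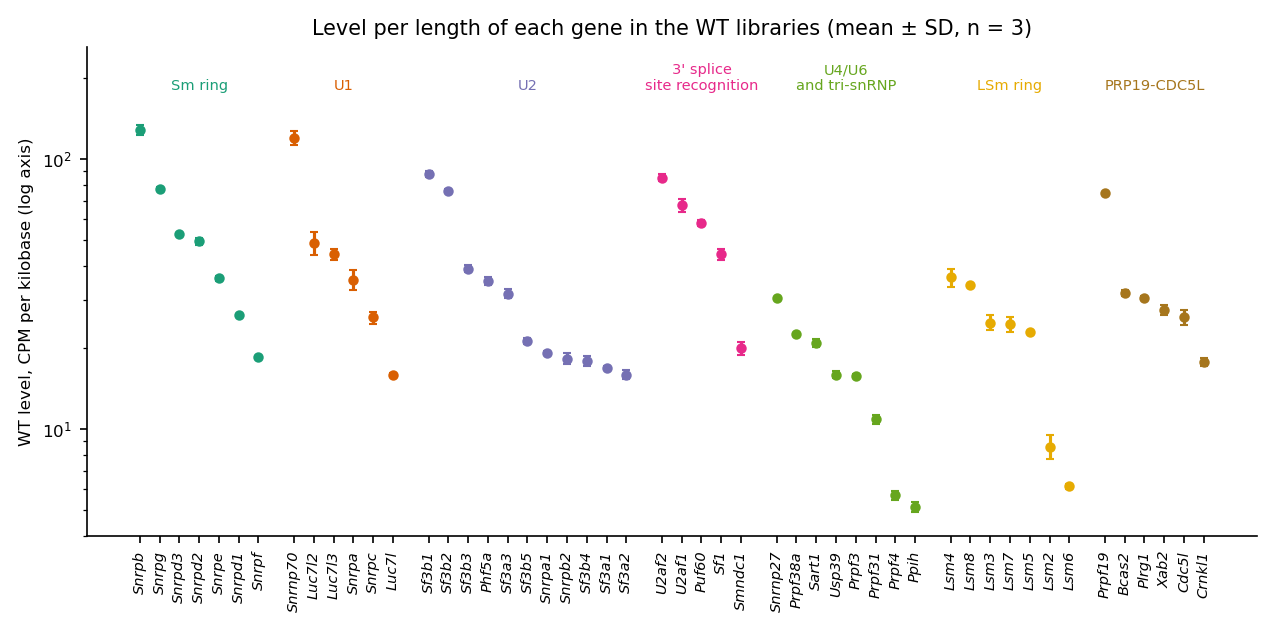
Mean level per length in the 3 WT libraries, in CPM per kilobase on a log axis, with SD as error bars, ordered from high to low within each particle. Levels within a particle span ratios from 4.22 in the PRP19-CDC5L group to 7.57 in U1.

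None of the 7 Sm ring genes passed in edgeR or DESeq2. Their log2 fold changes ran from -0.06 to 0.08, and the median was -0.02. Snrpe, a small Sm protein gene, had 50.6, 50.0 and 48.5 CPM in WT1, WT2 and WT3 and 51.9, 52.9 and 52.8 CPM in KO1, KO2 and KO3 (edgeR adjusted p = 0.317). Every KO library was above every WT library, by a narrow margin. Snrpb, which encodes the SmB and SmB' proteins, had 144, 149 and 157 CPM in WT and 144, 143 and 145 CPM in KO (adjusted p = 0.478), with WT1 and the KO libraries at like levels. Snrpd3 had 32.2, 31.6 and 31.7 CPM in WT and 32.6, 34.3 and 32.1 CPM in KO (adjusted p = 0.585), and its groups overlapped. Snrpd1, Snrpd2, Snrpf and Snrpg had log2 fold changes of 0.02, -0.03, -0.03 and -0.02. Of the 4 parts of Snrpf, 3 overlap another gene, and the counts do not separate the strands.

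All 6 U1 genes had lower mean levels in KO, and none passed in edgeR with all libraries. Luc7l was called lower by DESeq2 (adjusted p = 0.0259) and by edgeR without KO replicate 3 (adjusted p = 0.0482). Luc7l, whose protein resembles a yeast U1 component and influences the choice of 5' splice sites, had 112, 112 and 109 CPM in WT and 87.7, 79.7 and 102 CPM in KO (log2 fold change -0.30, SE 0.09, edgeR adjusted p = 0.126). Each KO library was below each WT library, KO2 furthest. Its relative Luc7l3 had 312, 303 and 285 CPM in WT and 281, 215 and 264 CPM in KO (log2 fold change -0.25, adjusted p = 0.223). Again the groups did not overlap, though KO1 came close to WT3. With the longest exonic part alone the log2 fold change of Luc7l3 was 0.072 and the U1 median -0.12. Part 1 of Luc7l3, a 3' UTR stretch described below, spans 3171 of the gene's 7278 exonic bases. It held a higher share of the gene's counts in each KO library than in each WT library.

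Snrnp70 had 191, 213 and 212 CPM in WT and 177, 139 and 199 CPM in KO (log2 fold change -0.26, adjusted p = 0.295 in edgeR), where KO3 lay above WT1. Luc7l2, the third LUC7-like gene, had 383, 358 and 308 CPM in WT and 334, 239 and 352 CPM in KO (log2 fold change -0.18, adjusted p = 0.543), so that KO2 alone lay below all WT libraries. The other U1-specific genes Snrpa and Snrpc, for the U1-A and U1-C proteins, had log2 fold changes of -0.07 and -0.03.

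The lowest U1 values were those of KO2. Relative to mean WT levels, the median log2 level of the 6 genes was -0.08 for KO1, -0.48 for KO2 and -0.06 for KO3, and 5 of the 6 had their lowest level of all libraries in KO2, as did 15 of the 50. KO2 was also the library with the highest tubule markers, at 2.50 for the distal list and 0.79 for the proximal tubule list, against 0.47 and 0.26 for the proximal list in KO1 and KO3. The share of all counts in parts of annotated retained introns was lowest there too, at 0.693%, against 0.847% to 0.915% in the other libraries. The part of these in the U1 values was not tested. Without KO replicate 2 the U1 median was -0.09, against -0.21 with all libraries.

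**Figure D3:**
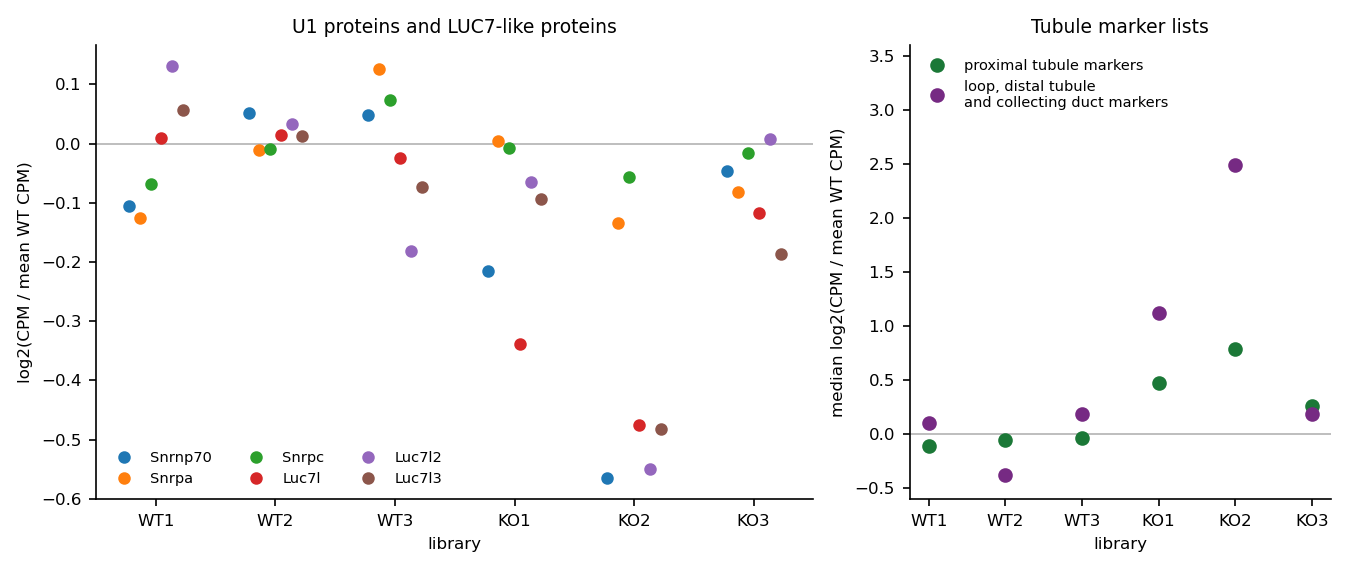
Left, log2 of CPM over the mean WT CPM for each of the 6 U1 genes in each library; right, the median of the same measure over 12 proximal tubule markers and 12 distal nephron markers. Snrnp70, Luc7l, Luc7l2 and Luc7l3 are lowest in KO2, where both marker lists are highest.

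The U2 proteins, which include the SF3A and SF3B complexes that clamp the branch point, had a median log2 fold change of -0.02. None of 11 passed in edgeR, while DESeq2 called Sf3b3 lower (adjusted p = 0.0074). Sf3b3, a large scaffold subunit of SF3B, had 171, 172 and 163 CPM in WT and 135, 142 and 153 CPM in KO (log2 fold change -0.24, SE 0.06, edgeR adjusted p = 0.0866). All KO libraries lay below all WT libraries, and the same held for Sf3b1, the subunit that grips the branch point helix, with 559, 538 and 535 CPM in WT and 513, 498 and 524 CPM in KO (adjusted p = 0.331). Sf3a1 had 83.5, 84.6 and 81.5 CPM in WT and 77.5, 74.5 and 82.0 CPM in KO (adjusted p = 0.325), with KO3 inside the WT range. The other 8, Snrpa1, Snrpb2, Sf3a2, Sf3a3, Sf3b2, Sf3b4, Sf3b5 and Phf5a, had log2 fold changes from -0.06 to 0.07, and the groups overlapped for each.

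Among the 5 factors of the branch point and 3' splice site Smndc1 rose. It had 44.3, 42.6 and 39.9 CPM in WT1, WT2 and WT3 and 57.0, 54.5 and 55.9 CPM in KO1, KO2 and KO3. The lowest KO library was well above the highest WT library, with a log2 fold change of 0.40 (SE 0.05, edgeR adjusted p = 0.0269). Smndc1 has 1 annotated transcript, and its level was higher along the whole gene: relative to the gene's own total, the log2 changes of its 6 parts ran from -0.13 to 0.02, and none passed the test with the gene total as offset. Without 1 library at a time its adjusted p ran from 0.0485, without WT replicate 3, to 0.125, and passed only in that fit of 6.

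Puf60, a poly-U binding protein that cooperates with U2AF, had 107, 112 and 112 CPM in WT and 124, 123 and 121 CPM in KO (log2 fold change 0.15, SE 0.04, edgeR adjusted p = 0.105, DESeq2 0.0087), with no overlap between the groups. U2af1, which encodes the small U2AF subunit that reads the AG of the 3' splice site, had 61.4, 67.1 and 68.4 CPM in WT and 68.8, 66.8 and 70.2 CPM in KO (adjusted p = 0.546). U2af2, the large subunit that binds the polypyrimidine tract, and the branch point binding protein gene Sf1 both had log2 fold changes of -0.05. For all 3 the groups overlapped.

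None of the 8 U4/U6 and tri-snRNP genes passed in edgeR, while DESeq2 called Prpf3 and Prpf31 higher (adjusted p = 0.0021 and 0.0115). Of the 8, 4 had log2 fold changes above 0 and 4 below. Prpf3, which encodes a U4/U6 protein that binds the U4/U6 duplex, had 55.2, 53.7 and 53.6 CPM in WT and 67.6, 60.9 and 72.1 CPM in KO (log2 fold change 0.30, SE 0.07, edgeR adjusted p = 0.0669). Prpf31, which bridges U4/U6 and U5, had 35.7, 38.2 and 35.9 CPM in WT and 42.2, 40.9 and 41.4 CPM in KO (log2 fold change 0.18, SE 0.05, adjusted p = 0.106). For both genes every KO library was above every WT library. Counting only the longest exonic part of a gene, the log2 fold change of Prpf3 was 0.07 and that of Prpf31 -0.05, and neither passed the test.

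Prpf4, the partner of PRPF3, lay the other way, with 31.01, 30.2 and 28.8 CPM in WT and 27.5, 27.5 and 27.9 CPM in KO (log2 fold change -0.12, edgeR adjusted p = 0.235). Usp39, whose protein is needed for tri-snRNP recruitment, was also lower in each KO library than in each WT library (log2 fold change -0.09). Ppih, Sart1, Prpf38a and Snrnp27 had log2 fold changes from -0.06 to 0.05.

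In the LSm ring Lsm4 rose. It had 31.4, 36.7 and 33.5 CPM in WT1, WT2 and WT3 and 45.6, 42.5 and 45.4 CPM in KO1, KO2 and KO3. The KO libraries lay close together and above all WT libraries, with a log2 fold change of 0.39 (SE 0.07, edgeR adjusted p = 0.0447). Relative to the gene's total, the log2 changes of its 9 parts ran from -0.06 to 0.05, so the higher level held along the gene. With 1 library left out at a time the rise passed in 0 of 6 fits, with adjusted p from 0.083, without WT replicate 3, to 0.144, without KO replicate 1.

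The 6 other genes of that ring did not share the rise. Lsm8, the subunit that sets the nuclear U6 ring apart from the cytoplasmic ring, had 29.9, 29.2 and 29.8 CPM in WT and 27.1, 28.5 and 28.4 CPM in KO (edgeR adjusted p = 0.379). Lsm3 had 15.8, 17.6 and 15.9 CPM in WT and 15.6, 15.3 and 15.2 CPM in KO (adjusted p = 0.47). Both were lower in each KO library, by small margins, as was Lsm6 (log2 fold change -0.06). Lsm2, Lsm5 and Lsm7 had log2 fold changes of -0.04, 0.08 and -0.01 with overlapping groups.

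In the PRP19-CDC5L group none of 6 passed in edgeR, while DESeq2 called Crnkl1 and Cdc5l lower (adjusted p = 0.0054 and 0.0231). Crnkl1, a scaffold protein with tetratricopeptide-like repeats, had 63.1, 59.2 and 59.6 CPM in WT and 50.2, 54.3 and 50.7 CPM in KO (log2 fold change -0.23, SE 0.05, edgeR adjusted p = 0.0719). Cdc5l, the Myb-like core protein of the group, had 82.4, 76.8 and 73.0 CPM in WT and 66.7, 67.7 and 67.8 CPM in KO (log2 fold change -0.20, SE 0.05, adjusted p = 0.105). In both the KO libraries lay below all WT libraries. Xab2 had 72.3, 77.0 and 78.6 CPM in WT and 83.5, 78.4 and 84.9 CPM in KO (adjusted p = 0.262), where KO2 lay inside the WT range. The ubiquitin ligase gene Prpf19 was slightly lower in each KO library (log2 fold change -0.05), and Plrg1 and Bcas2, with overlapping groups, were at -0.05 and 0.03.

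**Figure D4:**
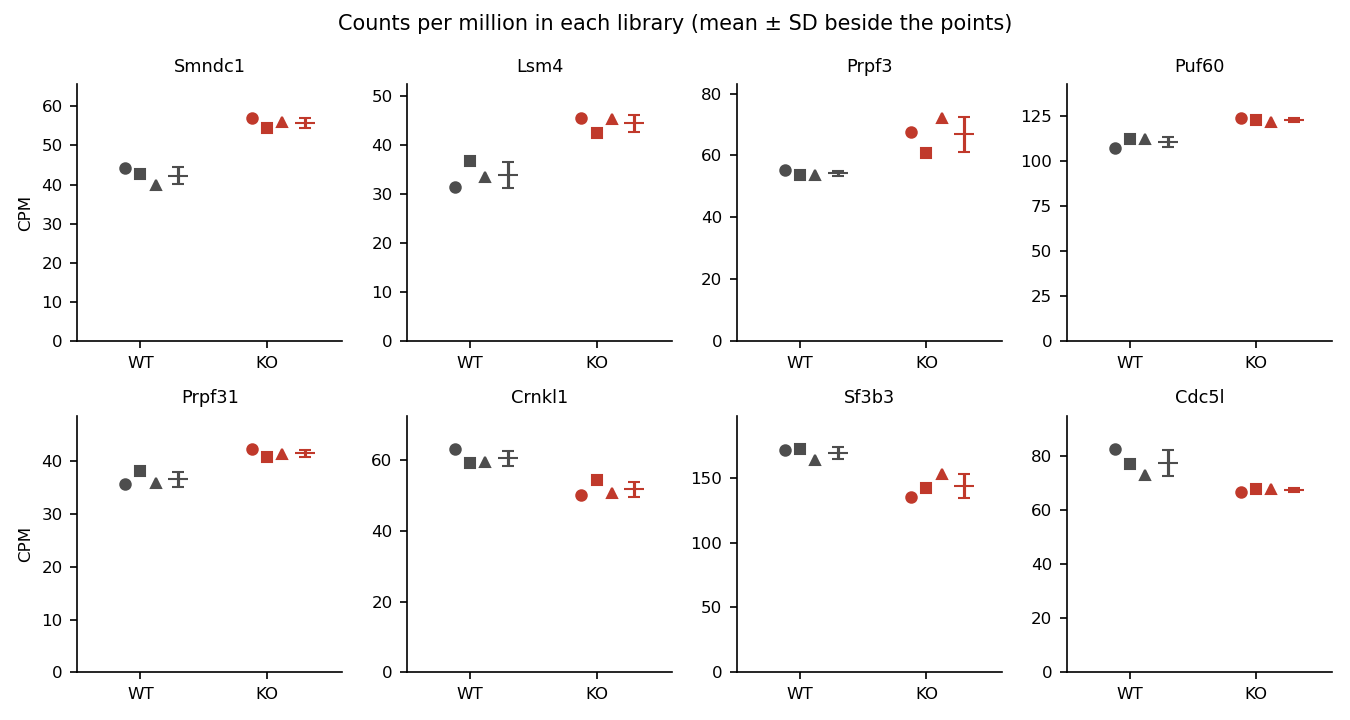
CPM in each library for 8 genes with the smallest p-values, from axes that start at 0, with WT in grey, KO in red, replicates 1, 2 and 3 as circle, square and triangle, and the mean ± SD (n = 3) beside the points. The groups do not overlap in any of the 8, and Smndc1 and Lsm4 are the pair that passed the test.

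Other spliceosome genes were counted beside these. Of 11 genes of U5 and its assembly 3 rose, the scaffold gene Prpf8 (log2 fold change 0.43), the helicase gene Snrnp200 (0.43) and the assembly factor gene Tssc4 (0.51), and 1 fell, Cd2bp2 itself; the edgeR adjusted p-values ran from 0.0147 to 0.0321. That list's median was 0.10. None of 9 minor spliceosome genes, 28 later-acting genes or 19 genes of snRNP assembly passed, with medians of -0.07, -0.03 and -0.06. Of 6 other Sm-like genes Lsm14a, which acts in cytoplasmic mRNA storage and decay, fell by 0.22 on the log2 scale (adjusted p = 0.0487).

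The study's title names alternative splicing, so the use of parts within each gene was compared next. Of the 850 parts 614 are alternative, that is, listed for some but not all transcripts of their gene, and 12 of the 50 genes have none. The filter left 788 parts in 49 genes, 553 of them alternative. In edgeR's diffSpliceDGE test 0 of the 788 passed, against 0.0627% of 236061 parts over all genes, and 4 had an unadjusted p under 0.05, which is 0.508% against 1.16%. No member gene passed the Simes test per gene, which called 0.383% of 15145 genes.

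Other tests of the same parts made a few calls. The edgeR offset test, in which a part is fitted against its gene's total, called 3 member parts, 0.381% against 0.131% over all genes, namely parts 36 and 37 of Luc7l2 and part 1 of Luc7l3. limma-voom diffSplice called 2, 0.254% against 0.173%, namely part 7 of U2af1 and part 8 of Prpf31. Its Simes test called these 2 genes, and the share over all genes in that test is not given here. No part was called by both the offset test and limma-voom diffSplice. The share of a gene's counts lay wholly higher in KO for 43 parts and wholly lower for 44, or 5.46% and 5.58%, against 5.48% and 5.69% over all genes.

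Part use can move with RNA quality. The median share of counts on the 5' side of the midpoint of a gene's exonic bases ranged from 51.3% to 51.8% over 10796 genes in the 6 libraries, and from 57.8% to 60.5% over 36 of the 50 genes, highest in KO2. In WT it was 57.9% to 59.0% for these 36.

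U2af1 has 2 transcripts that differ only in which of 2 exons of 67 bases each they include, part 7 (chr17:31789447-31789513, upstream) or part 6 (chr17:31788591-31788657, downstream), both coding and on the minus strand of NCBIM37. The pair was chosen after its values were seen: part 7 had the smallest diffSpliceDGE p of the alternative parts of these genes (unadjusted p = 0.0053), so the shares below describe that pattern and do not test it independently. The sequences, from GENCODE M21 transcripts of the same identifiers and exon lengths, run 5' to 3' with the 23 positions that differ in capitals, and 44 positions are identical.
U2af1 part 7: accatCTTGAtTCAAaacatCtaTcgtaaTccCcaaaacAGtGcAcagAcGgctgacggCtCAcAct
U2af1 part 6: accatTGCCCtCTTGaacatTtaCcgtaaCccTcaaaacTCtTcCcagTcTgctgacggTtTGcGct

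Of the counts in these exons, part 7 held 30.0%, 27.7% and 29.7% in WT1, WT2 and WT3 and 20.9%, 20.5% and 23.3% in KO1, KO2 and KO3, over 1982 to 3117 counts per library. Every KO library was below every WT library, with means of 29.1 ± 1.25% and 21.5 ± 1.52% (SD, n = 3 each; p = 0.1 in a two-sided exact permutation test, which cannot give less with 3 against 3 libraries). As a share of all counts of the gene, part 7 went from 4.94 ± 0.331% to 3.76 ± 0.241% and part 6 from 12.0 ± 0.138% to 13.7 ± 0.352%, again without overlap. The other 7 parts, present in both transcripts, had log2 changes relative to the gene total from -0.04 to 0.02. Part 7 had an adjusted p of 1.00 in diffSpliceDGE, 0.0501 in the edgeR offset test and 0.0057 in limma-voom diffSplice. Its log2 change was -0.39 in the offset test and -0.41 in limma-voom diffSplice.

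Luc7l2, whose endings were also singled out after their values were seen, ends in either of 2 ways. A shared exon of 192 bases (part 32, chr6:38553277-38553468, plus strand) is joined to a distal last exon (parts 36 to 39). Otherwise its 5' splice site is left unspliced, and the transcript runs on into an adjoining extension (parts 33 to 35, chr6:38553469-38556367). The coding ends are shown, with the stop codon in capitals, because they show what each ending adds to the protein: 7 bases in the extension and 178 in the distal exon.
Luc7l2 part 33: gtacTGA
Luc7l2 part 36: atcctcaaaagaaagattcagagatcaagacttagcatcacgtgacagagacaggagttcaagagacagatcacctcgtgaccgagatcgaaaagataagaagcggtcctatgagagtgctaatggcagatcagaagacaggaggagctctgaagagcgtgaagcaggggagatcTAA

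The distal exon held 33.2%, 35.3% and 35.2% of the counts in either ending in WT and 28.6%, 27.2% and 30.5% in KO, over 17535 to 26652 counts per library. All KO libraries lay below all WT libraries, with means of 34.5 ± 1.16% and 28.8 ± 1.67% (SD, n = 3 each; p = 0.1 in the same exact permutation test). Part 36 went from 8.76 ± 0.241% to 7.12 ± 0.229% of the gene's counts and part 37 from 2.25 ± 0.069% to 1.87 ± 0.049%. In the edgeR offset test their adjusted p-values were 0.0025 and 0.0268, with log2 changes of -0.30 and -0.27, and in diffSpliceDGE and limma-voom diffSplice 1.00 for both. The extension parts 33, 34 and 35 had log2 changes of 0.09, 0.10 and 0.01. Part 31, upstream of both endings, was also lower in each KO library, from 2.07 ± 0.097% to 1.83 ± 0.140% of the gene's counts. Among the gene's 21 alternative parts with at least 1% of its counts, 4 were lower in each KO library and 1 was higher. Part 36 passed the offset test in each of the 6 fits that left out 1 library (adjusted p 0.0028 to 0.0295), and part 37 in 1 of them, that without KO replicate 3 (0.038 to 0.168).

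Luc7l3 part 1 is a stretch of 3171 bases of 3' UTR listed for 1 of the gene's 10 transcripts (chr11:94149204-94152374). It held 6.57%, 6.09% and 6.99% of the gene's counts in WT and 8.01%, 7.86% and 8.27% in KO. The KO libraries were all above the WT libraries, with a log2 change relative to the gene total of 0.30 (edgeR offset test, adjusted p = 0.0213; limma-voom diffSplice 1.00). With 1 library left out it passed in 3 of 6 fits, not without WT replicate 1 (adjusted p = 0.0751), WT replicate 2 (0.0737) or KO replicate 1 (0.113).

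Prpf31 part 8 (chr7:3582508-3583023) lies only in a transcript annotated as retaining an intron. It held 5.14%, 5.52% and 5.29% of the gene's counts in WT and 4.26%, 3.78% and 4.13% in KO, so each KO library was lower. Its adjusted p was 0.000505 in limma-voom diffSplice, 0.0748 in the edgeR offset test and 1.00 in diffSpliceDGE. The coding exons that follow, parts 9 and 10, were higher in each KO library, from 5.26% to 6.12% and from 5.33% to 6.22% of the counts, with adjusted p of 0.461 and 0.629 in the offset test.

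Among the 10 genes whose alternative part had the smallest p in diffSpliceDGE, those described next passed no test. Xab2 part 14, in a retained intron, went from 0.197 ± 0.012% to 0.331 ± 0.065% on 25 to 86 counts, and Lsm6 part 2, in a 3' UTR, from 5.01 ± 0.256% to 3.85 ± 0.385% (SD, n = 3 each). Neither pair of groups overlapped. Sf1 part 7 and Lsm2 part 17 were lower in each KO library, the latter on 10 to 27 counts, and Luc7l part 14 and Crnkl1 part 14 overlapped.

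**Figure D5:**
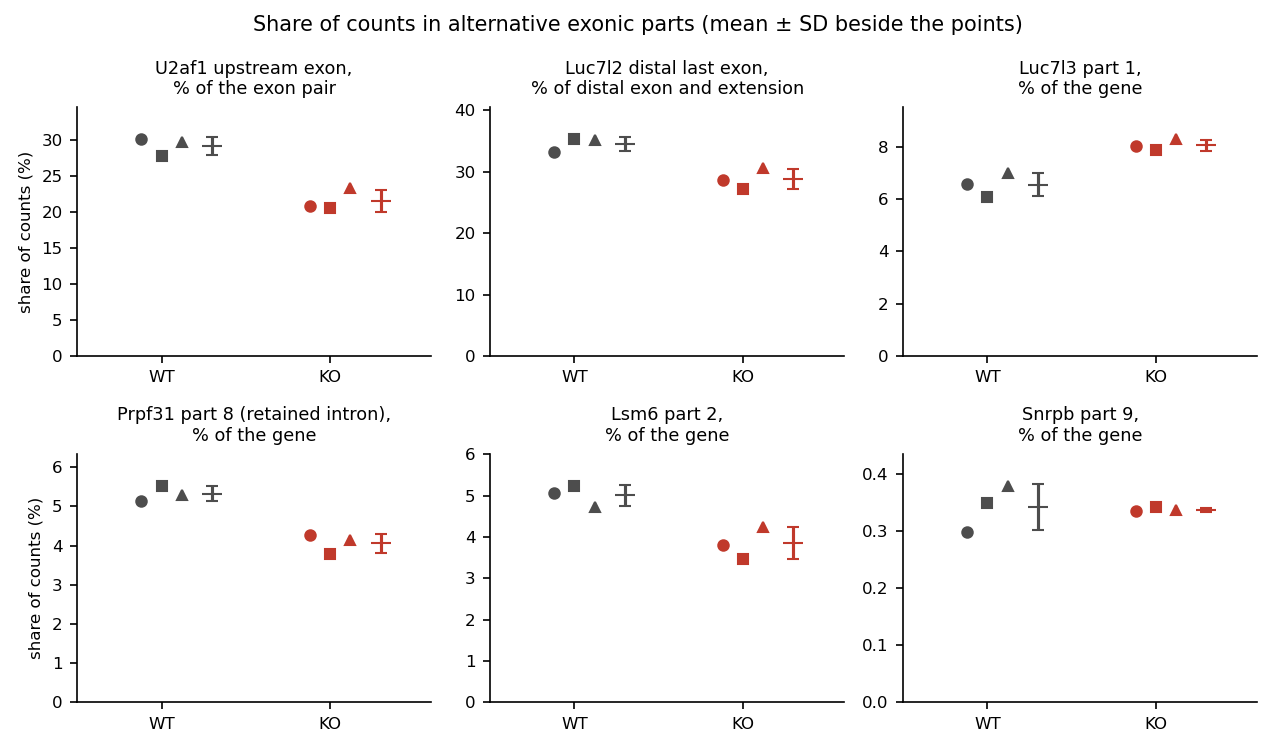
Share of counts in 6 alternative parts in each library, from axes that start at 0, with WT in grey, KO in red, replicates 1, 2 and 3 as circle, square and triangle, and the mean ± SD (n = 3) beside the points. The upstream U2af1 exon, the distal Luc7l2 exon, the Prpf31 retained intron and Lsm6 part 2 are lower in all KO libraries, Luc7l3 part 1 is higher, and Snrpb part 9 overlaps.

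Genes with known regulated exons were read for parts holding at least 1% of a gene's counts. Snrpb carries an exon, part 9, that lies in a transcript annotated for nonsense-mediated decay; SmB is known to regulate its own level through such an exon. This exon was below 1% and is given in addition. It held 0.299%, 0.35% and 0.379% of the counts in WT and 0.335%, 0.342% and 0.337% in KO, on 80 to 136 counts per library, with the KO libraries inside the WT range. Of the alternative parts with at least 1% of the counts, 14 in Snrnp70, 20 in Luc7l and 30 in Sf1 gave 1 part each that was higher in all KO libraries and 0 that were lower, and 7 in Snrpb gave 0 higher and 1 lower. Luc7l2 gave 1 higher and 4 lower of 21, and Luc7l3 1 higher and 3 lower of 27, and the U2af1 pair 1 of each. Over the parts of all genes 5.48% lay wholly higher and 5.69% wholly lower. Smndc1 has no alternative part.

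Parts found only in transcripts annotated as retained introns numbered 66 in 25 of the genes. They held 1.66%, 1.57% and 1.58% of all counts of the 50 genes in WT1, WT2 and WT3 and 1.72%, 1.44% and 1.82% in KO1, KO2 and KO3. The KO libraries lay on either side of WT, and KO2 was the lowest, as it was over all genes. Shares per gene were highest in Bcas2 (15.5 ± 0.566% in WT and 14.9 ± 0.921% in KO), Luc7l (12.4 ± 0.567% and 13.4 ± 0.752%) and Snrpa1 (12.1 ± 0.523% and 13.02 ± 1.43%; SD, n = 3 each), all with overlapping groups. The groups did not overlap for Lsm3 (4.70 ± 0.283% and 3.75 ± 0.402%), Prpf31 (5.32 ± 0.191% and 4.06 ± 0.251%) and Xab2 (2.69 ± 0.378% and 3.21 ± 0.190%). How often this held per gene over all genes was not counted. The 10 parts found only in transcripts annotated for nonsense-mediated decay, in 7 genes, held 0.0292 ± 0.0005% (SD, n = 3) of WT counts and 0.0285 ± 0.0029% (SD, n = 3) of KO counts.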

How the data were processed

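Per the file headers and values, the deposited tables give for each exonic part a raw read count, the covered bases, the part's length and the covered fraction, annotated with Ensembl 67 for the mouse build NCBIM37. The authors' fraction column and base columns were not used. TopHat 1.4.1 is named in the submitters' processing notes, as is GRCh37, which is human and differs from the headers; the counting tool is not given in the sources used here, and counts were treated as unstranded. Part counts were summed to gene counts, so a read spanning several parts enters more than once. No 2 replicates were 1 library deposited again (chi-square of their counts, per gene, 73.7 to 220.3). All 19742 genes that passed filterByExpr were fitted together with edgeR 4.0.16 in R 4.3.3 (TMM, quasi-likelihood test, 3 KO against 3 WT, no covariate, Benjamini-Hochberg adjusted p under 0.05). The median SE of a log2 fold change was 0.13. Part use was fitted over all parts with diffSpliceDGE in genes with at least 2 parts, and shares were compared by exact two-sided permutation tests. Library medians use CPM plus 0.1. The 5' shares used genes with at least 500 counts and 1000 bases.

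Sequences and coding regions came from GENCODE M21 transcripts with the same exon lengths (185 of 202 transcripts), and coordinates from the files. The part named for 1 further gene is not reported here. Alternatives were RLE normalization, other filters, a replicate block, leaving out libraries, other ways to sum parts, DESeq2 1.42.0, limma 3.58.1 (voom) and the gene total as offset. The scripts were tested on simulated counts. The members and lists were chosen with earlier results of these data known. The rule for named genes was each member past the test and the 3 with the smallest p in each particle, members whose groups do not overlap, and the alternative part with the smallest p in 10 members, plus alternative parts of genes with known regulated exons. The U2af1 pair, Luc7l2 ending, Prpf31 parts 9 and 10 and Snrpb part 9 were singled out after their values were seen.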

Additional observations from a re-analysis of the deposited data

How the results depend on the processing

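Of the 50 genes 2 rose with all libraries, and 0 to 1 did with 1 library left out, while 0 to 1 fell (Luc7l, without KO replicate 3, adjusted p = 0.0482). Over all genes the same fits called 23 to 129 higher and 8 to 148 lower. No gene rose without WT3 and KO3 together, and 1 rose with the longest exonic part alone and 1 with constitutive parts alone (Smndc1). DESeq2 called 5 higher (Puf60, Prpf31, Prpf3, Smndc1, Lsm4) and 4 lower (Crnkl1, Cdc5l, Luc7l, Sf3b3), 18% against 14.0% of all genes, and limma-voom called Smndc1 and Lsm4, 4% against 2.49%. Deviations of same-numbered libraries correlated at 0.107, -0.060 and 0.158, and those of differently numbered libraries at -0.203 to 0.107. Not every library correlated best with its own number, and so few libraries cannot settle whether the numbers pair them. With the replicate block 0 members were called (Smndc1 adjusted p = 0.0725, Lsm4 0.112), while over all genes 51 rose and 31 fell, against 319 and 347 without the block. Among the 3 genes with the smallest p in each particle, the longest part alone turned the sign of Snrpb (0.033), Luc7l3 (0.072), Prpf31 (-0.050) and Lsm8 (0.026). None of these passed, and signs of the other members are not listed here.

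Median log2 fold changes ranged, with 1 library left out, from -0.053 to -0.0059 for all 50, from -0.027 to -0.0012 for the Sm ring, from -0.024 to -0.0050 for U2, from 0.017 to 0.094 for 3' splice site recognition and from -0.063 to 0.026 for the LSm ring. With at least 1 CPM in 3 libraries they were -0.0019 for both the Sm ring and U2, and -0.0020 for U2 without WT3 and KO3. With the longest part alone they were 0.033 for the Sm ring, 0.058 for U2 and -0.12 for U1. Constitutive parts alone, which cover 34 of the 50 genes and 1 of the 6 in U1, gave -0.025 for U1, -0.049 for U2, 0.10 for 3' splice site recognition, -0.077 for U4/U6 and 0.0043 for the LSm ring.

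For part use, 0 member parts passed in diffSpliceDGE under each filter and with each library left out. The gene total as offset called 3, 0.381% against 0.131% of all parts, and limma-voom diffSplice called 2 parts in 2 genes, 0.254% against 0.173%. The offset test called 5 with the replicate block added and 1 to 8 with 1 library left out. The shares over all parts in these further fits are not given here, so their counts cannot be set against a general rate. The share of Snrpb part 9 (KO minus WT) ranged from -0.027 to 0.013 percentage points with 1 library left out, and that of Snrnp70 part 8 from -0.21 to 0.090, and both crossed 0. The U2af1 and Luc7l2 shares could not change sign in this way, because every KO library lay below every WT library in both. At 13 to 27 counts per WT library, parts such as Lsm2 part 17 are limited by depth.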

Other observations

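Luc7l2 also has parts that are listed for transcripts without a coding region or with a retained intron. They were singled out after their values were seen, because some were called by the offset test in edgeR only when KO replicate 2 was left out. The share of all parts called in that fit is not given here. Part 11 (1658 bases) held 5.70%, 5.38% and 5.04% of the gene's counts in WT1, WT2 and WT3 and 6.68%, 5.04% and 6.68% in KO1, KO2 and KO3. Part 21 (648 bases) held 2.84%, 2.80% and 2.59% in WT and 3.47%, 2.79% and 3.54% in KO. KO1 and KO3 were above all WT libraries in both parts, while KO2 lay within the WT range in part 21 and just below it in part 11.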
